A study of Mus musculus with 6 samples.

Results

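The FOXO and KLF quiescence factors described here are 10 genes that hold lymphocytes in a resting state or act beside such factors: Foxo1, Foxo3, Klf2, Klf3, Klf6, Klf13, Btg1, Pik3ip1, Tob1 and Txnip. They were taken from a list of names, out of 19937 mouse genes measured on 6 Affymetrix arrays, and each is represented by its probe set, the group of probes for a transcript, that names no other gene. All 10 members have exactly 1 such probe set, so none of their values depends on a choice between probe sets.

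The arrays form 2 groups of 3. The TLX3 group holds double-negative (DN) thymocytes, which lack CD4 and CD8, from wild-type C57Bl/6 mice, infected with the retroviral vector pMSCV-GFP-TLX3 and grown on irradiated OP9-DL1 stromal cells, which present a Notch ligand, in medium with interleukin 7 and Flt3 ligand for 4 to 5 weeks. TLX3 is a homeobox gene switched on in some T-cell leukaemias, and the labels call this group tumoral. The Rag2-/- group, whose titles read RAG-/- and which is labelled control, holds DN thymocytes of mice described as Rag2-/-. Rag2 is a recombinase subunit needed to assemble antigen receptors, and thymocytes without it stop at the DN stage. The labels describe thymi of mice aged 4 to 6 weeks, depletion of cells with CD4 or CD8 on magnetic beads and flow sorting. They give 1 text on infection and culture for both groups, while the design text speaks of 2 culture conditions and mentions OP9-DL1 for the TLX3 cells alone. Whether the Rag2-/- cells were cultured or infected is therefore unclear. Further, no wild-type cells with the empty vector were analysed here, so TLX3, genotype, infection and any difference in culture cannot be told apart. Nor do they say whether the replicates are separate mice or cultures. The p-values therefore cover only how these 3 samples a group varied, which may be technical variation.

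FOXO proteins are transcription factors that stay in the nucleus while signalling through PI3K and the kinase AKT is low. There they switch on genes that slow growth or keep lymphocytes responsive to survival signals, such as Klf2, Il7r and the cell cycle inhibitor Cdkn1b. When growth factor or antigen receptor signals raise AKT activity, FOXO proteins are phosphorylated and leave the nucleus, a change of protein that an array of transcripts does not measure. In the thymus, resting and dividing phases alternate as precursors pass the DN stages.

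Values are log2 expression values. Differences are those of the TLX3 arrays minus the Rag2-/- arrays, tested with limma and adjusted by Benjamini-Hochberg over 28192 probe sets. A gene was called, and is said to have risen or fallen, at an adjusted p under 0.05 with a log2 difference of at least 1 in size. The arrays differed in range, with an interquartile range of 2.47 to 2.85 log2 units in the TLX3 group and 3.09 to 3.18 in the Rag2-/- group. The median log2 difference over all genes was 0.11, against 0.04 after a repeat quantile normalization and 0.00 once cyclic loess had been applied. Tlx3 itself was at 7.09, 6.52 and 6.45 on the TLX3 arrays, against 5.40, 5.42 and 5.52 on the Rag2-/- arrays, and it rose by 1.24, measured against a Rag2-/- level under the array medians that may be background. Rag2 was at 7.44, 7.84 and 7.87 on the TLX3 arrays, against 8.11, 8.01 and 7.95 on the arrays labelled Rag2-/-. All 6 values lie above the array medians, and those of the arrays labelled Rag2-/- are the higher ones, which goes against a loss of this transcript. Which part of the gene the probes cover, and which part was deleted, is not stated, so the probe set does not check the genotype, and the Rag2-/- group below means the arrays so labelled. The sources used here do not say of which species the insert is. Of 13 markers of DN thymocytes, 12 had a TLX3 mean above the array medians, with Cd44 below them, and all 13 had a Rag2-/- mean above them. Ptcra, Il2ra and Cd44 fell. At an adjusted p under 0.05 alone, 9 of the 13 were lower and 1, Gata3, was higher. Over all genes these shares were 19.4% and 23%, and among genes above the median level 31.6% and 14%. The median log2 difference of the 13 was -0.62, against -0.16 over genes above the median level. Of the coreceptors removed by the sort, Cd8b1 rose, while Cd4 and Cd8a were not called. Cd8b1 was at 6.76 to 7.12 on the TLX3 arrays, against a Rag2-/- mean of 5.48 that lies under the array medians. Markers of other cells differed as well: 14 of 15 myeloid and dendritic, 9 of 12 natural killer and 6 of 11 thymic epithelial markers fell. The mean level over the myeloid list lay between 5.57 and 5.73 on the TLX3 arrays, against 8.17 to 8.41 on the Rag2-/- arrays. For the natural killer list it was 5.46 to 5.56 on the TLX3 arrays and 7.37 to 7.54 on the Rag2-/- arrays, and for the epithelial list 6.34 to 6.62 on the TLX3 arrays and 8.36 to 8.95 on the Rag2-/- arrays. On the TLX3 arrays, 14 of the 15 myeloid and 10 of the 12 natural killer markers had a mean under the array medians, where background cannot be told from a low level. So had 6 of the 11 epithelial, 7 of the 11 stromal and 3 of the 4 erythroid markers. Among stromal markers 4 of 11 fell, among erythroid markers 1 of 4, and of 7 B-cell markers none was called. Their part in the results below was not tested, and in bulk RNA fewer cells of a type and less RNA per cell cannot be told apart. Of 8 endothelial markers none was called, and the mean level over that list was 6.03 to 6.10 in the TLX3 group and 5.97 to 6.16 in the Rag2-/- group.

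The comparison asks which quiescence genes differ in transcript level between DN thymocytes given TLX3 and those of Rag2-/- mice. Btg1 and Pik3ip1 fell by more than 2-fold. Txnip, Klf6 and Klf2 were lower past the adjusted p but short of the minimum difference, while Foxo1, Foxo3, Klf3, Klf13 and Tob1 did not pass it. The called members thus make 2 of 10, or 20%, lower and none higher. Over all genes, 5.07% were called lower and 1.44% higher, and among the 9968 genes above the median level, where all 10 members lie, 7.9% were called lower and 1.32% higher. At the adjusted p alone, 5 of 10 members were lower, against 19.4% of all genes and 31.6% of those above the median level. None was higher, against 23% and 14%, and none was higher at an unadjusted p under 0.05 either, against 29.6% and 17.6%. The groups did not overlap for 6 of 10 members, all lower in the TLX3 group, against 26% of all genes and 42.8% of those above the median level. In either direction, the share without overlap was 58.3% of all genes and 63.8% of those above the median level, near the members' own share. The median log2 difference of the 10 was -0.34, against 0.11 over all genes and -0.16 over genes above the median level. The plot of all values by array shows these levels.

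**Figure D1:**
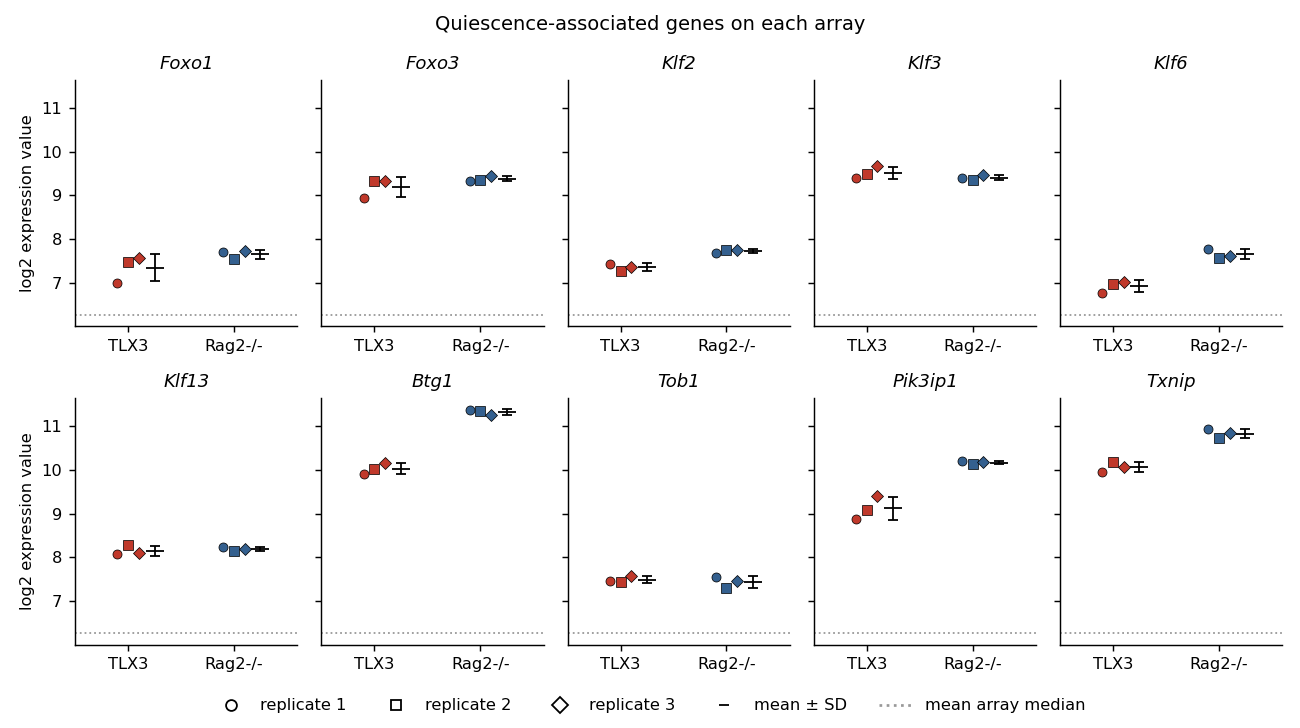
Deposited log2 expression value (vertical axis) of the 10 genes on each array, TLX3 group left and Rag2-/- group right, with marker shape for the replicate, mean ± SD beside the points (n = 3) and a dotted line at the mean of the array medians. Btg1, Pik3ip1, Txnip, Klf6 and Klf2 lie lower on every TLX3 array than on any Rag2-/- array, by gaps of 1.11, 0.72, 0.55, 0.53 and 0.24; heights of different genes are not comparable.

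Pik3ip1 encodes a membrane protein that binds the catalytic subunit of PI3K and restrains it, upstream of AKT and FOXO. It was at 8.87, 9.09 and 9.41 on TLX3 arrays 1, 2 and 3, against 10.21, 10.13 and 10.18 on the Rag2-/- arrays. The groups did not overlap, and the TLX3 arrays spread over 0.54 where the Rag2-/- arrays spread over 0.084. The mean was 9.12 ± 0.27 in the TLX3 group and 10.17 ± 0.04 in the Rag2-/- group (SD, n = 3 each), a log2 difference of -1.05 ± 0.15 (SE, limma adjusted p = 0.00116) or 2.07-fold. The 95% interval, -1.40 to -0.70, reaches past the minimum difference. The call was lost without TLX3 replicate 1, the array with the lowest value and the narrowest interquartile range (-0.92), with array weights (-0.92), after a repeat quantile normalization (-0.96) and with cyclic loess (-0.92), each time with an adjusted p under 0.05.

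Foxo1, the main FOXO factor of T-cell precursors, was at 6.99, 7.47 and 7.56 on the TLX3 arrays, against 7.70, 7.54 and 7.72 on the Rag2-/- arrays. TLX3 replicate 1 stood apart as the lowest, and TLX3 replicate 3 overlapped the Rag2-/- range. The log2 difference was -0.31 with a 95% interval of -0.69 to 0.06 (limma adjusted p = 0.155), and it was -0.14 without TLX3 replicate 1 or after a repeat quantile normalization and -0.18 with cyclic loess or array weights. Foxo3, a second FOXO factor with overlapping roles in lymphocytes, was at 8.93, 9.33 and 9.32 on the TLX3 arrays, against 9.33, 9.35 and 9.44 on the Rag2-/- arrays. Here the groups failed to overlap by only 0.002, and the low value was again that of TLX3 replicate 1. Its log2 difference of -0.18 had an interval of -0.50 to 0.15 (limma adjusted p = 0.334), and it was -0.05 without TLX3 replicate 1 and -0.03 both after a repeat quantile normalization and with cyclic loess. For both FOXO transcripts the interval leaves out a 2-fold fall.

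Klf2, a FOXO1 target that keeps mature T cells resting and drives their exit from the thymus, was at 7.43, 7.26 and 7.36 on the TLX3 arrays, against 7.67, 7.74 and 7.74 on the Rag2-/- arrays. Every TLX3 value was below every Rag2-/- value, though the log2 difference was small at -0.37 ± 0.12 (SE, limma adjusted p = 0.0338). It was 1.29-fold, with a 95% interval of -0.63 to -0.10 log2 units. It missed the threshold of 0.05 after a repeat quantile normalization (-0.17, limma adjusted p = 0.302) and with cyclic loess (-0.23, limma adjusted p = 0.169). Leaving out any array but TLX3 replicate 1 also took it past 0.05, to limma adjusted p-values of 0.0594 to 0.112, with differences between -0.39 and -0.32. Klf6, a broadly expressed factor known to induce the CDK inhibitor Cdkn1a, was at 6.76, 6.97 and 7.02 on the TLX3 arrays, against 7.78, 7.55 and 7.61 on the Rag2-/- arrays. The groups lay 0.53 apart. Its log2 difference was -0.73 ± 0.13 (SE, limma adjusted p = 0.00301), or 1.66-fold, and it passed the adjusted p after each rescaling and without each array (-0.79 to -0.59).

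Klf3, a repressor that competes with activating KLF factors for CACCC sites, was at 9.39, 9.49 and 9.66 on the TLX3 arrays, against 9.40, 9.35 and 9.46 on the Rag2-/- arrays. The groups overlapped, and the log2 difference of 0.11 had a 95% interval of -0.17 to 0.39 (limma adjusted p = 0.491), ranging over the rescalings and left-out arrays between 0.04 and 0.25. Klf13, known in T cells as an activator of the chemokine gene Ccl5, was at 8.09, 8.28 and 8.09 on the TLX3 arrays, against 8.24, 8.14 and 8.19 on the Rag2-/- arrays. It differed by -0.04 with an interval of -0.31 to 0.24 (limma adjusted p = 0.82), and the sign turned to 0.17 after a repeat quantile normalization and to 0.14 with cyclic loess. Both intervals leave out a 2-fold difference in either direction. Ccl5 itself, 1 of the natural killer markers that fell, had a mean of 6.12 in the TLX3 group, under the array medians, and 9.80 in the Rag2-/- group.

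Btg1 and Tob1 are related antiproliferative proteins that bring the CCR4-NOT complex to messenger RNAs, so that their poly(A) tails are shortened. Btg1 was at 9.91, 10.03 and 10.15 on the TLX3 arrays, against 11.38, 11.35 and 11.26 on the Rag2-/- arrays. The groups were 1.11 apart, several times the spread within either group. The mean was 10.03 ± 0.12 in the TLX3 group and 11.33 ± 0.06 in the Rag2-/- group (SD, n = 3 each), a log2 difference of -1.30 ± 0.12 (SE, limma adjusted p = 0.000197) or 2.46-fold, and 2.36% of all genes had a lower difference. Its call held after each rescaling and without each array (-1.36 to -1.21), but not when limma treat tested against a difference of 1 (unadjusted p = 0.0199, adjusted p = 0.815). Tob1 was at 7.46, 7.44 and 7.57 on the TLX3 arrays, against 7.56, 7.30 and 7.45 on the Rag2-/- arrays. These ranges overlapped, and the log2 difference was 0.05 with a 95% interval of -0.23 to 0.34 (limma adjusted p = 0.747), or -0.01 with equal array medians and 0.25 after a repeat quantile normalization.

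Txnip encodes a protein that binds and inhibits thioredoxin and limits glucose uptake. It was at 9.96, 10.19 and 10.08 on the TLX3 arrays, against 10.93, 10.73 and 10.84 on the Rag2-/- arrays. The groups lay 0.55 apart with similar spread, 0.23 over the TLX3 arrays and 0.20 over the Rag2-/- arrays. The log2 difference was -0.76 ± 0.13 (SE, limma adjusted p = 0.00209), or 1.69-fold, and it passed the adjusted p after each rescaling and without each array (-0.82 to -0.66) without reaching the minimum difference in any of these settings.

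**Figure D2:**
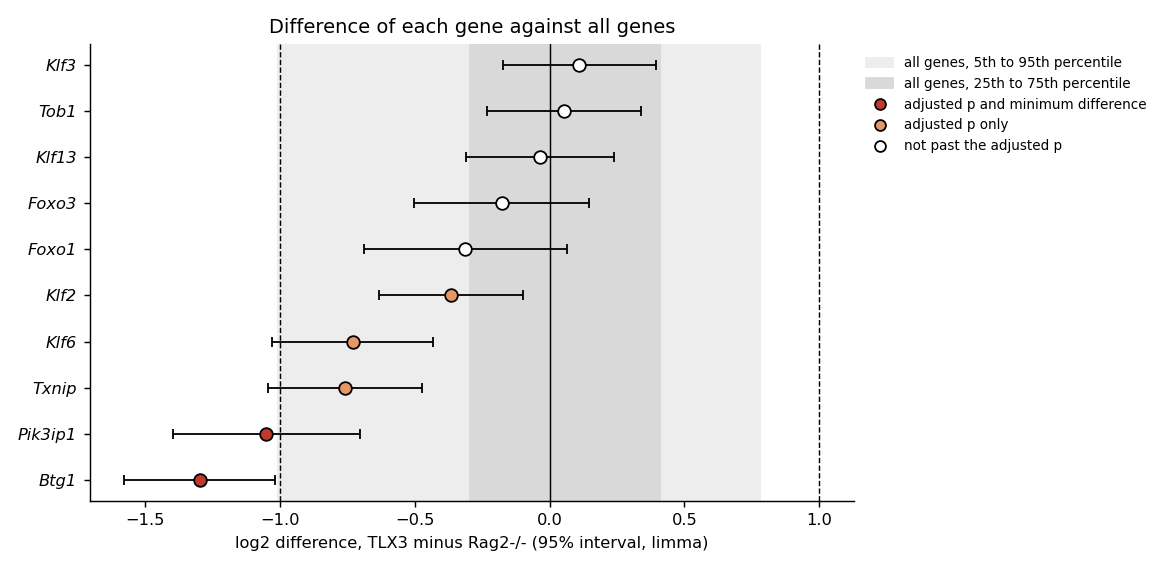
Log2 difference (TLX3 minus Rag2-/-, horizontal axis) of the 10 genes with its 95% limma interval. Grey bands span central percentile ranges of all 19937 genes, dashed lines mark the minimum difference of 1, and fill shows which test was passed; Btg1 (-1.30) and Pik3ip1 (-1.05) lie beyond the dashed line, and the intervals of 5 genes include 0.

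Over all genes, the difference moved with level and with gene length. In 10 equal bins by level, the median log2 difference was 0.34 in bin 1, the dimmest, and -0.13 in bin 10, which holds Btg1, Pik3ip1, Txnip, Foxo3 and Klf3. It was -0.19 in bin 7, which holds Foxo1, Klf2, Klf6 and Tob1, and -0.21 in bin 8 with Klf13. In 5 equal bins by gene length among genes above the median level, the median was -0.40 for the longest genes and 0.10 for the shortest. Foxo3 and Foxo1, with gene lengths of 94.9 and 81.8 kb, lie in the longest bin, whereas Btg1 (5.81 kb), Tob1 (5.65 kb), Txnip (3.90 kb) and Klf2 (2.59 kb) lie in the shortest. The bin before the longest ends at 60.65 kb. Of genes named below, Inpp4b, Foxp1, Cblb, Rictor, Pik3cb, Klf7, Klf8, Klf12 and Sesn1 exceed this length, as do some CCR4-NOT subunits. Sesn3, Tnfsf10, Itgb7, Slfn1 and Btg2, which were called, do not. The epithelial marker Prss16 varied among the Rag2-/- arrays, at 11.18, 11.12 and 12.17, while the 10 members spread over 0.07 to 0.26. On Rag2-/- replicate 3, where Prss16 was highest, Foxo1, Foxo3, Klf2 and Klf3 had their highest Rag2-/- value, Btg1 its lowest, and the other 5 members a middle one.

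**Figure D3:**
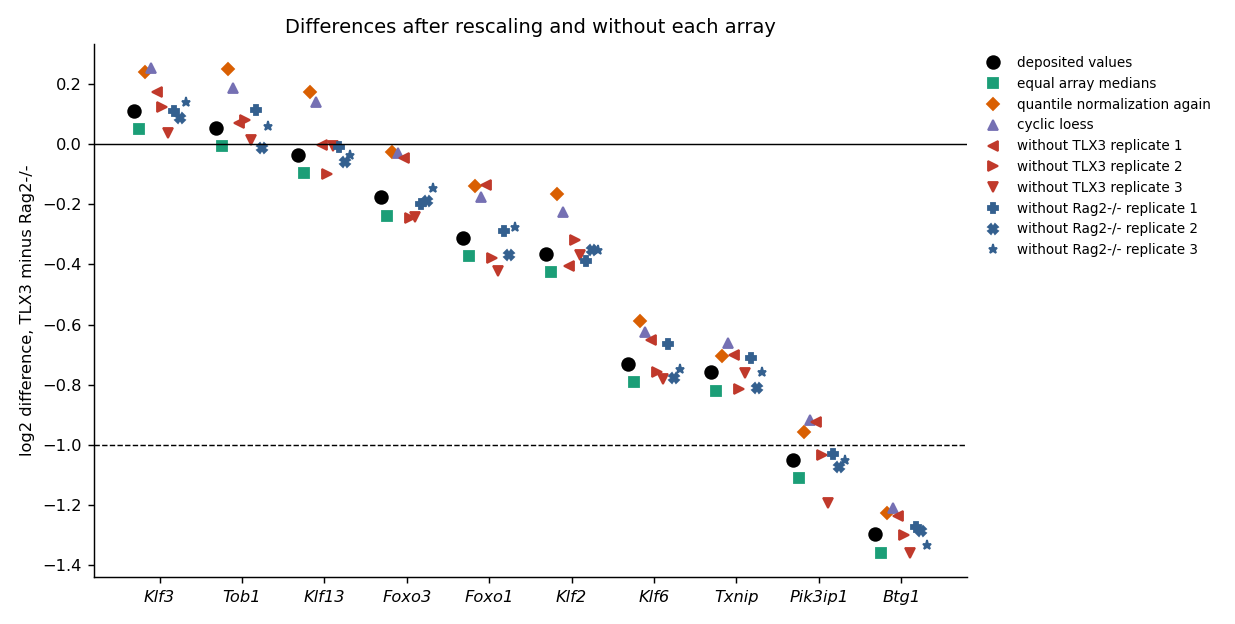
Log2 difference (TLX3 minus Rag2-/-, vertical axis) of each of the 10 genes from the deposited values, after 3 rescalings and without each array in turn. The points of Btg1 all lie below the dashed line at -1, those of Pik3ip1 lie on both sides of it, and those of Klf13 and Tob1 lie on both sides of 0.

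Upstream sequences are shown for Btg1, Pik3ip1 and Txnip, the members with the lowest differences, because FOXO and KLF proteins act through short sites in promoters. Each is the 250 bases before the transcription start in RefSeq's mouse assembly GRCm38.p6, on the plus strand. Capitals mark the FOXO core GTAAACA and the KLF core CACCC, each searched on both strands, so that TGTTTAC is a FOXO core on the opposite strand. The Btg1 window is chr10:96616751-96617000, the Txnip window chr3:96557707-96557956 and the Pik3ip1 window chr11:3330481-3330730, whose start site lies inside the annotated span of that gene.
Btg1: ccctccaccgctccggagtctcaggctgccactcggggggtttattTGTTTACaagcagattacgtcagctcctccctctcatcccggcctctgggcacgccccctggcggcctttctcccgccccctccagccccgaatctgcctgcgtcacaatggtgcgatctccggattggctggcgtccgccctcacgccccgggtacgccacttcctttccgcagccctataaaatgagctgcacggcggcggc
Txnip: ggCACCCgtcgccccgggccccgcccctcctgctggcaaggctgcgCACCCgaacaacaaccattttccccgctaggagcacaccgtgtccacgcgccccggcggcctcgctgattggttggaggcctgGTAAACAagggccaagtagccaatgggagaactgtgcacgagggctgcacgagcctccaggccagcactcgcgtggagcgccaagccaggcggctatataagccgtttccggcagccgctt
Pik3ip1: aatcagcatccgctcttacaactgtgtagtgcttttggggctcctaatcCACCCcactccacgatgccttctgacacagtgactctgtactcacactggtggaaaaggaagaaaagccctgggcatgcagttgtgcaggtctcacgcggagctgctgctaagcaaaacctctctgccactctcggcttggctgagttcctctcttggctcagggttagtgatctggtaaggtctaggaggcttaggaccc

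The FOXO core was found in the windows of 2 of 10 members. It starts at position -204 of Btg1 on the opposite strand and at position -121 of Txnip on the strand shown, counted from -1 at the last base before the start. Over 32851 such windows of 27025 genes, 3.17% hold this core, so a match is uncommon. The windows of Pik3ip1, Klf2, Klf6 and the 5 members that did not pass the adjusted p hold none. The KLF core was found in 6 of 10, namely Txnip, Klf2, Klf3, Klf13, Pik3ip1 and Tob1, against 52.0% of all windows. The E-box CACGTG was found in Klf6 only, at position -43, against 6.02% of all windows. These matches describe letters in a short window and do not show binding.

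The other members of the same families give the setting of these values. Of 4 FOXO genes, none was called. Foxo4 differed by 0.16 without passing the adjusted p, and Foxo6, best known from brain, was higher by 0.83 (limma adjusted p = 0.000997), at 6.58, 6.46 and 6.60 on the TLX3 arrays, against 5.75, 5.66 and 5.74 on the Rag2-/- arrays, which is under the array medians. Of 17 KLF genes, none was called either, 7 were higher at the adjusted p alone, 3 were lower and 7 passed in neither direction. Over all genes, 23% were higher and 19.4% lower at the adjusted p alone. The 3 lower ones were Klf6, Klf2 and Klf7 (-0.47). The 7 higher ones were Klf1 (0.94), the erythroid factor, Klf4 (0.76), Klf16 (0.75), Klf14 (0.73), Klf17 (0.63), Klf5 (0.54) and Klf10 (0.51). Klf1 had a Rag2-/- mean under the array medians, and Klf17 had both means under them, with groups that overlapped. Klf1 was called without TLX3 replicate 2 (1.11) or without Rag2-/- replicate 2 (1.02). Klf11, Klf8, Klf15, Klf12 and Klf9 differed by 0.32, 0.31, 0.00, -0.31 and -0.32 without passing the adjusted p, Klf8 and Klf12 with both means under the array medians. The median of the KLF family was 0.31, against 0.11 over all genes, and 0.08 without TLX3 replicate 3.

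**Figure D4:**
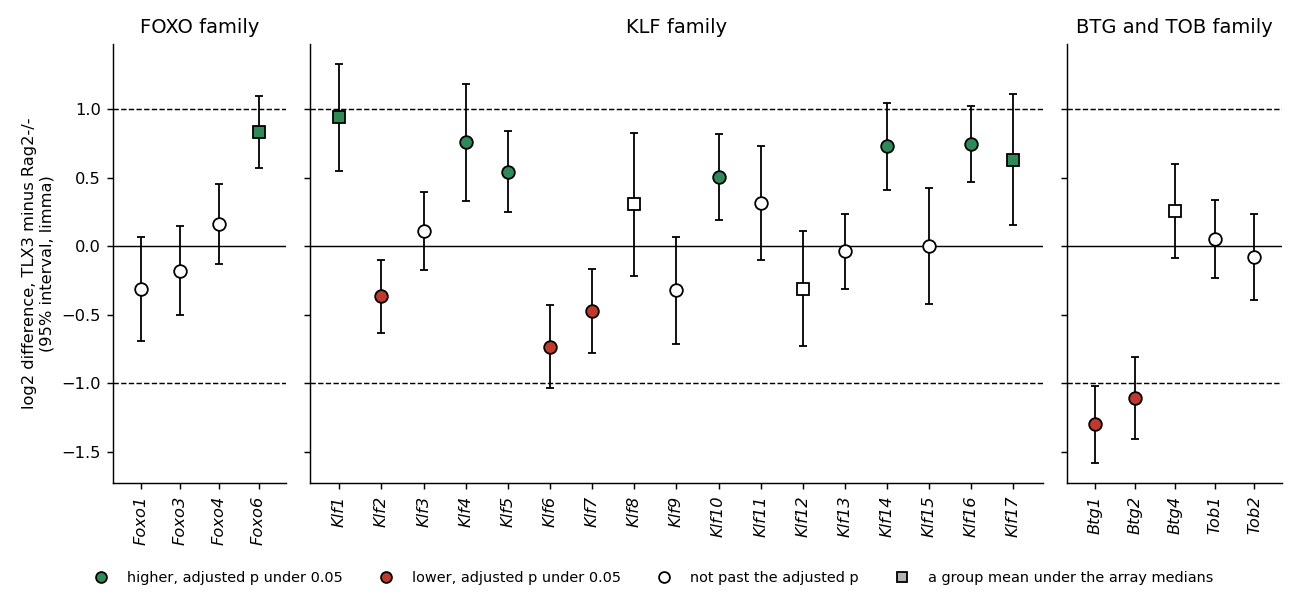
Log2 difference (TLX3 minus Rag2-/-, vertical axis) with its 95% limma interval for the 4 FOXO, 17 KLF and 5 measured BTG and TOB genes. Fill gives the direction past the adjusted p, squares mark genes with a group mean under the array medians, and dashed lines lie at -1 and 1; Btg1 (-1.30) and Btg2 (-1.10) are below -1, and KLF genes lie on both sides of 0.

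In the BTG and TOB family, Btg3 was not analysed here, and 2 of 5 fell, against 5.07% of all genes. Btg2, a close relative of Btg1 with which it shares its role in resting T cells, was at 8.63, 8.91 and 8.97 on the TLX3 arrays, against 9.93, 9.97 and 9.93 on the Rag2-/- arrays. It fell by 1.10 on the log2 scale (limma adjusted p = 0.000507), a call lost after a repeat quantile normalization (-0.97) and with cyclic loess (-0.96). Btg4 stood at 0.26 from means under the array medians and Tob2 at -0.08, and neither passed the adjusted p.

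Of 29 measured FOXO target genes, a list that includes the members Klf2, Pik3ip1 and Txnip, 3 fell, none rose and 26 were not called. Over all genes, 5.07% were called lower and 19.4% were lower at the adjusted p alone. Among genes above the median level these shares were 7.9% and 31.6%, and they also stand beside the counts of the lists that follow. Sesn3, a sestrin that restrains mTORC1, fell by 1.23, Tnfsf10, the death ligand TRAIL, by 1.12, and Pik3ip1 by 1.05. At the adjusted p alone 13 were lower, among them Il7r (-0.996), the interleukin 7 receptor, Cdkn1b (-0.93, with a second probe set at -0.27), Bcl2l11 (-0.84), a killer of the BCL2 family, and S1pr1 (-0.72), the receptor for thymic exit. Trib1 (0.92) and Cat (0.61) were higher, of which Cat is the antioxidant enzyme catalase. Ccr7, Sesn1 and Rag1 did not pass it (-0.18, -0.11 and 0.17), nor did Rag2 (-0.30), the gene named in the genotype of the Rag2-/- arrays. The median log2 difference of the list was -0.30, against -0.16 over genes above the median level. The number called moved with single arrays: without TLX3 replicate 1 only Tnfsf10 fell and Trib1 rose, and without TLX3 replicate 2 or 3 it was 6. Of this list Sesn3 alone was called with cyclic loess or a repeat quantile normalization.

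Of 4 measured genes that KLF2 controls in lymphocyte homing, Itgb7, an integrin chain for gut homing, fell by 1.05, and S1pr1 and S1pr4 (-0.62) were lower at the adjusted p alone. The TLX3 means of Itgb7 (6.17) and S1pr1 (5.81) lie under the array medians, so that these differences too are measured against a level that may be background. The call of Itgb7 was lost when TLX3 replicate 3 (-0.80) or Rag2-/- replicate 3 (-0.98) was left out, and Ccr7 did not pass. Of 21 measured genes of the PI3K and AKT pathway, Pik3ip1 alone was called. The mTORC2 subunit Rictor (-0.97) and the catalytic subunit Pik3cb (-0.86, with a TLX3 mean under the array medians) were the next lowest, Rictor being called with equal array medians and without TLX3 replicate 2 or 3 or Rag2-/- replicate 2. In all, 7 of the list were lower and none higher at the adjusted p alone, against 31.6% and 14% of genes above the median level. Of these 7, all but Pik3ip1 exceed 60.65 kb in gene length, and the longest bin had a median of -0.40. The part of gene length was not tested. Akt1 stood at 0.31 (limma adjusted p = 0.0566). Of 15 measured brakes on PI3K and mTOR, 2 fell: Inpp4b, a lipid phosphatase, by 1.43, and Sesn3. Inpp4b kept its call after each rescaling, with array weights and without each array (-1.51 to -1.36), though its TLX3 mean of 5.98 lies under the array medians, so that the difference is measured against a level that may be background. Sesn3 lost its call without TLX3 replicate 1 (-0.94). Another 6 brakes were lower at the adjusted p alone.

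Of 20 other genes tied to lymphocyte quiescence, Cblb, a ubiquitin ligase that raises the threshold for T-cell activation, fell by 1.09, and Slfn1, a Schlafen gene, by 1.03, the last against a TLX3 mean of 5.41, under the array medians and possibly background. At the adjusted p alone 1 was higher, Foxj1 (0.50, with both means under the array medians), and 13 were lower, including Slfn2 (-0.71), the Schlafen gene whose loss ends T-cell quiescence in mice, and Foxp1 (-0.56), which holds naive T cells at rest. The median was -0.53, against -0.16 over genes above the median level. Without TLX3 replicate 3 the number called was 4, with Cdkn1b and Peli1 added. It was 1, Slfn1, with cyclic loess, with array weights and without TLX3 replicate 1, and 1, Cblb, when probe sets under the median level were left out.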

How the data were processed

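Total RNA of 6 samples was labelled with biotin and hybridised to 1-colour Affymetrix arrays, per the labels' protocols. The authors deposited log2 values, 1 per probe set, which RMA of the affy package had background-corrected, quantile-normalized and summarised over probes (R 2.9.0), per the submitters' processing notes. These notes name no genome build.

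Of 34760 probe sets, 6568 in the lowest ID range, where none lists a gene, were taken as controls and left out. Of the 28192 tested, 21640 name 1 gene, 1321 several and 5231 none. A gene was represented by its brightest single-symbol probe set. Groups and replicate numbers came from the sample titles. Differences were tested with limma 3.58.1 (lmFit, eBayes, two-sided, no covariate) in R 4.3.3. The fit was also run on simulated data. The shifts added there were larger than the differences of Btg1 and Pik3ip1, so calls near the minimum difference were not covered. Precision is limited by the number of arrays, and the median over probe sets of the SD was 0.21 in the TLX3 group and 0.11 in the Rag2-/- group, on the log2 scale. The 18 alternatives were a repeat quantile normalization, equal array medians, cyclic loess, removal of dim probe sets, robust variances with an intensity trend, a block by replicate number, array weights, the mean or dimmest probe set of a gene, the adjusted p alone, limma treat, and the omission of each array in turn.

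Named are the 10 members, all measured FOXO, KLF, BTG and TOB genes, a set of downstream genes, and up to 6 called genes per list. Rictor, Pik3cb, S1pr4, Cat, Trib1, Peli1, Foxj1, Ccl5, Prss16 and the genes under Other observations that are not members were named after their values were seen. The members and lists were chosen with earlier results of these data known. Lists are described by counts and medians, with no set test. Counts are over the measured genes of each list, and some listed genes were not analysed here. Sequences and gene lengths come from RefSeq tables of GRCm38.p6. Plots were drawn with matplotlib 3.10.9.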

Additional observations from a re-analysis of the deposited data

How the results depend on the processing

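The number of members called lower was 2 with the deposited values and 1, Btg1, with array weights, with cyclic loess and after a repeat quantile normalization. It was 5 at the adjusted p alone and 0 with limma treat, where 1 member had an unadjusted p under 0.05. Without each array in turn it was 1 to 2. The number called higher was 0 in all 18 alternatives. Signs turned only for values that did not pass the adjusted p: Klf13 (0.17 after a repeat quantile normalization, 0.14 with cyclic loess), Sesn1 (0.0882 and 0.0585), Btg4 (-0.039 and -0.0684), Tob1 and Klf15 with equal array medians (-0.0075 and -0.058), and, over the left-out arrays, Tob1 (-0.0148 to 0.11), Klf15 (-0.15 to 0.19) and Tob2 (-0.16 to 0.0305). The cause was not tested. Deviations of same-numbered arrays from their group means correlated at -0.11, 0.06 and -0.00, and none of the 3 TLX3 arrays correlated best with its own number. Values this small, from 3 arrays a group, cannot settle whether the numbers pair the samples, which the labels do not say. With the replicate number as a block, the same 2 members were called lower and 0 higher, and Klf2 missed the adjusted p (0.0747). Detection calls were not used, so a level under the array medians may be background. Precision rests on 3 arrays a group, and the TLX3 arrays spread more.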

Other observations

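Of 11 measured subunits of the CCR4-NOT deadenylase, which Btg1 and Tob1 bring to messenger RNAs, none was called by limma. At the adjusted p alone, 6 were lower and 1 higher. Over all genes, 19.4% were lower and 23% higher by this rule, and among genes above the median level 31.6% and 14%. These shares also stand beside the counts of the lists below. The median log2 difference of the subunits was -0.54, against -0.16 over genes above the median level. Cnot4 (-0.74), Cnot8 (-0.72), Cnot6 (-0.67), Cnot6l (-0.59), Cnot2 (-0.55) and Cnot7 (-0.54) were the 6, which include the deadenylases themselves, and Cnot11 (0.41) was the other. The scaffold subunit Cnot1 stood at -0.27 and Cnot3 at 0.23, and neither passed. By length, Cnot1, Cnot2, Cnot4 and Cnot6l belong to the longest bin, with its median of -0.40, and Cnot6, Cnot7 and Cnot8 to shorter ones. The part of gene length was not tested.

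Of 15 measured regulators of FOXO proteins, 8 were lower and 2 higher at the adjusted p alone, with none called. The median was -0.43, against -0.16 over genes above the median level, and Ikbkb alone was called without TLX3 replicate 3. The lowest was Ikbkb, a kinase that marks FOXO3 for destruction, at -0.86, and the highest Prmt1, a methyltransferase that shields FOXO1 from AKT, at 0.49. Of 12 genes of alpha-arrestins and thioredoxin partners, Txnip among them, none was called, 4 were lower and 2 higher at the adjusted p alone. Txn1, the thioredoxin that Txnip binds, stood at -0.97, and at 10.49, 11.29 and 11.09 on the TLX3 arrays, against 11.99, 11.99 and 11.80 on the Rag2-/- arrays. Arrdc4, an alpha-arrestin close to Txnip, stood at -0.75 with groups that did not overlap. The mitochondrial Txn2 was the highest at 0.48. Txn1 was called lower with equal array medians and without TLX3 replicate 2, TLX3 replicate 3 or Rag2-/- replicate 3.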
